A study of Homo sapiens with 96 samples.

Results

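The response of REC1 cells to rituximab F(ab')2 was measured on 6 expression arrays: 3 arrays of cells that received the fragment and 3 arrays of untreated cells. They belong to a series of 96 arrays, 24 of which are from REC1, and were chosen by their labels alone, with every probe set of the array kept. REC1 is an established mantle cell lymphoma line. The fragment was given for 4 h at a labelled dose of 10 µg/ml, and the untreated cells (labelled Control, dose 0) were harvested at the same time. Further REC1 groups of 3 arrays each, set against the fragment where stated, received whole rituximab, LT20 (a mouse antibody against CD20) or a human IgG isotype antibody, all labelled 10 µg/ml and 4 h. The remaining REC1 groups, also of 3 arrays each, received whole anti-IgM, anti-IgM F(ab')2 or anti-IgG antibody, likewise labelled 10 µg/ml and 4 h. They entered the shared model fit and are cited where stated. The methods give a dose for whole antibodies but none for the rituximab fragment, whose dose is known here from the label alone. For the anti-IgM fragment of the same series, also labelled 10 µg/ml, the methods state a lower dose, matched in moles to the whole antibody. Whether the rituximab fragment was matched to whole rituximab by mass or in moles is therefore uncertain. No other cell line of the series received this fragment, all arrays are from 1 line, and nothing in the labels says whether the 3 arrays of a group came from separate cultures. The p-values therefore measure the spread between these arrays, which may be technical.

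Rituximab is a chimeric antibody against CD20, a 4-span membrane protein of B cells encoded by MS4A1. Its F(ab')2 fragment keeps both antigen-binding arms but lacks the Fc part, through which whole IgG binds Fc receptors; on B cells the main one is the inhibitory receptor FCGR2B. Binding of CD20 by such antibodies brings it into membrane rafts, where kinases of the B cell receptor (BCR) pathway reside. BCR signaling runs from SYK and LYN through adaptors and PLCG2 to calcium and MAP kinases, and within hours induces early growth response factors, chemokines and the phosphatases that end the signal.

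Signals are MAS5 values in arbitrary units. A probe set was tested where its mean signal exceeded 100 in at least 1 of the 8 REC1 groups, and a gene was called where a probe set had an adjusted p below 0.05 in limma, changed more than 2-fold and averaged above 100 in 1 of the groups compared. Tested were 14047 probe sets, or 9333 entries, an entry being a gene or a probe set with no single gene name. Replicate arrays of the 8 groups correlated at 0.973 to 0.993 (24 pairs). One technical feature set the fragment arrays apart. The control probe set for the 5′ end of 18S ribosomal RNA had 1921, 105 and 435 in the fragment arrays, against 3889, 3323 and 3409 in the untreated arrays. The corresponding 28S values were 2170, 411 and 1094 in the fragment arrays, against 2659, 2568 and 2104 in the untreated arrays. Such control signals were also low in the anti-IgM F(ab')2 arrays (18S, 407 to 1717) and in part of the anti-IgG arrays (942 to 2908). The ratio of 3′ to 5′ signal of GAPDH was 1.03 to 1.07 in the fragment arrays and 0.959 to 1.12 in the untreated arrays. The part of the ribosomal signal in the results was not tested.

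**Figure D1:**
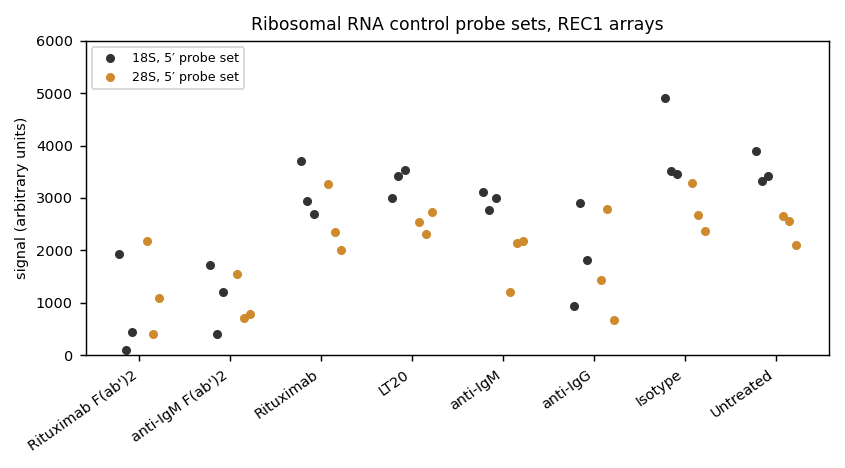
Signal (arbitrary units) of the control probe sets for the 5′ ends of 18S (black) and 28S (orange) ribosomal RNA in each of the 3 arrays of the 8 REC1 groups. The 3 arrays of rituximab F(ab')2 have 18S signals between 105 and 1921, below every untreated array (3323 to 3889).

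Sequences of 2 raised genes and 2 microRNAs are given first, because the results return to them. LCP2 had the largest fold rise among the main probe sets of named genes, and EGR1 is the classical immediate early gene of BCR signaling. The 250 bases before each RefSeq start site (GRCh38.p14) are printed 5′ to 3′ in the direction of transcription. Capitals in LCP2 mark GGAAAA, a core bound by NFAT factors (242 bases before the start), and a match to the NF-kB pattern (GGGA, any base, TT, any base, CC) (162 bases before it). Capitals in EGR1 mark 2 CArG boxes, the element of serum response factor, 105 and 83 bases before the start.
LCP2 (chr5:170297778-170298027, minus strand): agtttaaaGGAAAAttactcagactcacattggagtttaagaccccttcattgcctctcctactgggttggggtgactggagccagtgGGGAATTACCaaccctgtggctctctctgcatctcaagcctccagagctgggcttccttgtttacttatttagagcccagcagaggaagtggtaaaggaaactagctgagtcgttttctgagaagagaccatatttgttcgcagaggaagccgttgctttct
EGR1 (chr5:138465229-138465478, plus strand): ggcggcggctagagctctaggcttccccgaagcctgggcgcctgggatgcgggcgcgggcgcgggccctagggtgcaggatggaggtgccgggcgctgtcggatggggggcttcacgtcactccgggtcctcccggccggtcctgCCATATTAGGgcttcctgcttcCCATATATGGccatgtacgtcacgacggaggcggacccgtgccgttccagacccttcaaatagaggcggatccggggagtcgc
Both strands were searched for these 3 patterns and for the AP-1 pattern TGANTCA and the cyclic AMP element TGACGTCA, and no marked stretches overlap. A promoter was at hand for 105 of 135 raised and 80 of 110 lowered genes, and for 6623 of 7841 tested genes. CArG boxes stood in 4.76% of the raised genes' windows (5 genes: AKAP12, AQP3, EGR1, MYO1E and PDGFA), 2.5% of those of lowered genes and 1.06% over all tested genes. The NFAT core stood in 15.2% of the raised, 12.5% of the lowered and 17.5% of all tested genes' windows. For the NF-kB pattern these shares were 2.86% of the raised, 0% of the lowered and 1.45% of all tested, and for the AP-1 pattern 1.9% of the raised, 7.5% of the lowered and 3.26% of all tested. TGACGTCA was in no window of a raised or lowered gene and in 3.44% over all tested genes. Among all 27305 promoters of the table the shares were 1.14% for the CArG box, 21.4% for the NFAT core, 1.27% for the NF-kB pattern, 6.6% for AP-1 and 1.77% for TGACGTCA. A match is a stretch of letters, not a measured binding site.

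The following mature microRNAs belong to 2 immune-regulated transcripts on the array and are shown with bases 2 to 8, the seed, in capitals. Their seeds differ.
hsa-miR-155-5p: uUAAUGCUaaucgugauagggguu
hsa-miR-146a-5p: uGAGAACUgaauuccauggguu
The array reads their longer precursor transcripts, not the mature RNAs. The probe set shared by MIR155 and its host gene MIR155HG (229437_at, chosen after its values were seen) had 317, 323 and 328 in fragment-treated cells, against 216, 205 and 214 in untreated cells. The groups did not overlap, but the log2 change of 0.61 (SE 0.09, adjusted p = 7.1e-06) was under 2-fold. MIR146A (232504_at) had 80.8, 61.5 and 58.8 in fragment-treated cells, against 26.1, 17.2 and 20.4 in untreated cells, a 3.17-fold difference whose means stayed under the signal limit. In LT20-treated cells the MIR155 and MIR146A probe sets averaged, in this order, 626 ± 48.8 and 165 ± 10.97 (SD, n = 3).

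The first comparison gave the genes that differ between cells with the fragment and cells without any antibody. It does not separate binding of CD20 from the addition of an immunoglobulin: over the raised entries the median log2 change from untreated cells was 1.36 after the fragment and 0.93 after the isotype antibody, and over the lowered entries -1.24 after the fragment and -0.67 after the isotype antibody. Relative to untreated cells, 172 entries were higher (1.84% of 9333) and 168 were lower (1.8%) after the fragment, of which 154 and 149 carry a gene name. The counts of called list members given below are to be read against these shares. The rises were larger than the falls. By the probe set with the highest mean signal of each gene, 153 entries were called higher and 129 lower. Of these, 27 rose and 9 fell more than 4-fold, and 11 rose but none fell more than 8-fold. The 3 fragment arrays lay beyond all 3 untreated arrays for all 153 raised and 128 of 129 lowered entries. The exception was probe set 217363_x_at, which has no single gene name. Such separation largely follows from the limits of the call and adds no evidence to it. Its share over all entries was not counted. Since a call needs a mean above 100 in 1 group, 74 of the raised entries were under 100 in untreated cells and 71 of the lowered ones were under 100 after the fragment. Over the main probe sets of all 9333 entries the median log2 change was -0.01. Probe set 205249_at, which has no gene name in the annotation used here, changed most of all (1384, 1471 and 1295 with the fragment against 74.0, 83.1 and 62.4 untreated, 19.0-fold).

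CD20 itself was measured in all arrays. MS4A1 (probe set 228592_at, chromosome 11) had signals of 3896, 4126 and 4160.3 in fragment-treated cells, against 3879, 4175 and 3758 in untreated cells. The groups overlapped, and none of its 4 probe sets was called. CD79A, the BCR signaling chain, had 2692, 2537 and 2960.2 with the fragment against 2583, 2619.8 and 2655 untreated and likewise overlapped. CCND1, the cyclin that is overexpressed in mantle cell lymphoma, had 3468, 3424 and 3973 with the fragment against 3729.8, 3782 and 3438 untreated. Of the other cell types' lists, none of 7 monocyte markers and 1 of 7 NK cell markers (PRF1, not called) passed the signal limit. The summed signal of the 7 monocyte markers was 47.7 to 60.6 in fragment arrays and 52.7 to 65.7 in untreated arrays. Of 7 T cell markers, CD3D (1252, 1303 and 1324 with the fragment against 1393, 1324 and 1341 untreated) and CD3G (54.2, 51.0 and 38.5 with the fragment against 125, 135 and 115 untreated) passed it, and CD3G was lower. The other CD3 chain of the list, CD3E, averaged 55.8 ± 3.2 with the fragment against 62.2 ± 6.29 untreated. The summed signal of the 6 T cell markers with a probe set was 1425 to 1463 in fragment arrays and 1555 to 1620 in untreated arrays. For the 7 NK cell markers it was 81.1 to 90.65 in fragment arrays and 71.95 to 80.1 in untreated arrays. CD5, a surface marker of many mantle cell lymphomas, stayed under the limit with 7.95 ± 4.25 with the fragment against 10.4 ± 3.87 untreated.

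Chemokines and cytokines were among the largest rises. CCL4, a chemokine that attracts T cells and monocytes, had 3019, 3139 and 3429 in fragment-treated cells, against 184, 212 and 211 in untreated cells. This is a log2 change of 3.98 (SE 0.08, adjusted p = 3.7e-21 in limma). A probe set shared by CCL3, CCL3L1 and CCL3L3, related chemokines, was named after its values were seen and cannot be assigned to 1 of them. It had 2889, 3158 and 3354 in fragment-treated cells, against 329, 303 and 369 in untreated cells (9.4-fold). The isotype antibody gave a mean of 3172, which was 9.52-fold over untreated cells, and the fragment's log2 difference from it was -0.02 (adjusted p = 0.915). CSF1, the growth factor of macrophages (209716_at), had 873, 964 and 844 with the fragment against 72.0, 85.2 and 92.6 untreated (10.8-fold, adjusted p = 1.3e-15). LTA, lymphotoxin alpha, had 210.4, 194 and 211 with the fragment against 16.7, 28.4 and 34.4 untreated (8.08-fold). TNF had 1073, 1143 and 1131 with the fragment against 534, 495 and 495 untreated (2.2-fold). With these 4, the list of chemokines and cytokines had 4 of 10 tested members called higher and none lower, and its median log2 change was 0.70. After the isotype antibody the median of this list was also 0.70, and none of its members was called between fragment and isotype. The other 6 tested members were not called. Another secreted factor, the EGF receptor ligand HBEGF, had 113, 100.02 and 93.3 with the fragment against 49.0, 5.07 and 7.53 untreated, and 1 untreated array stood high. Its 8.25-fold rise was no longer called without fragment replicate 1, where its mean came under 100. CRIM1, a transmembrane protein that binds BMP ligands, averaged 248 ± 26.3 in fragment-treated cells and 29.3 ± 5.06 in untreated cells (SD, n = 3 each). The receptor of interleukin 21, IL21R (237753_at), had 574, 443 and 545 with the fragment against 63.6, 58.8 and 62.4 untreated, an 8.4-fold rise. The isotype antibody raised these genes too. CSF1, LTA, HBEGF, CRIM1 and IL21R were then 5.69-fold, 5.59-fold, 5.56-fold, 5.39-fold and 4.56-fold over untreated cells, in this order.

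**Figure D2:**
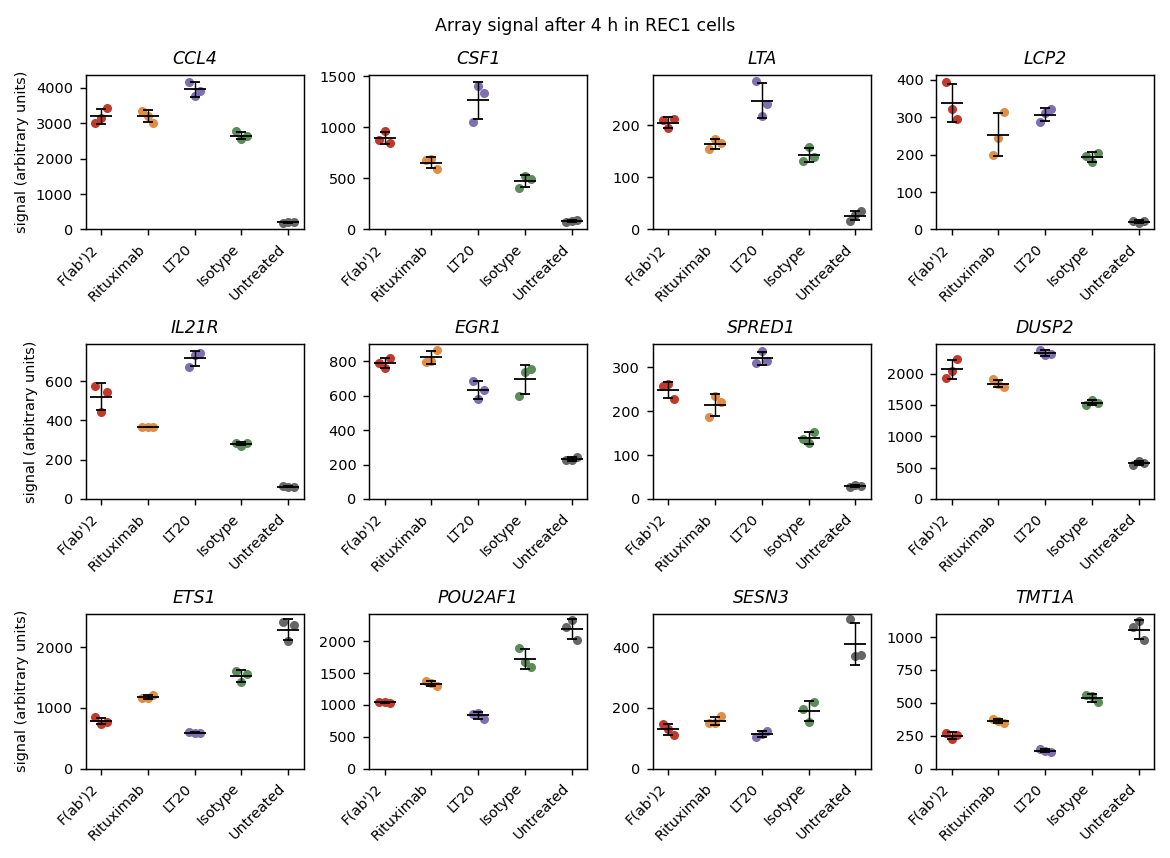
Signal (arbitrary units) of 12 genes in each of 3 arrays treated with rituximab F(ab')2, whole rituximab, LT20 or isotype antibody, or left untreated; bars are mean and SD. In the first 8 panels every untreated array lies below every treated one, and in the last 4 (ETS1, POU2AF1, SESN3, TMT1A) above.

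Immediate early transcription factors followed. EGR1 had 791, 759.6 and 817 in fragment-treated cells, against 228, 225 and 244 in untreated cells (3.39-fold, adjusted p = 1e-12). Its relative EGR3 had 927, 678 and 932 with the fragment against 170.0, 189.6 and 191 untreated (4.57-fold). Their corepressor NAB2, itself an EGR target, had 378, 405 and 429 with the fragment against 149, 163 and 145 untreated (2.65-fold). NR4A1, an orphan nuclear receptor used as a reporter of BCR signaling, averaged 159 ± 29.7 with the fragment and 41.4 ± 18.4 untreated, and MYC 3431 ± 31.6 with the fragment and 1439 ± 121 untreated (SD, n = 3 each). These 5 were the called members among 17 tested immediate early genes, with none called lower. The list's median log2 change was 0.58 after the fragment and 0.46 after the isotype antibody, and none of its members was called between the 2. FOS, the best known member, stayed under the signal limit at 25.3 ± 3 with the fragment and 2.44 ± 1.21 untreated.

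Inhibitors of MAP kinase and G protein signaling formed the list with the highest median of those tested, at a log2 change of 1.54 (1.19 after the isotype antibody, with no member called between the 2), with 6 of 12 tested members called higher and none lower. SPRED1, which blocks activation of RAF, had 257, 262 and 228 in fragment-treated cells, against 28.1, 31.4 and 30.1 in untreated cells (8.32-fold). SPRY2, which restrains RAS signaling downstream of receptor kinases, had 149.8, 127 and 119 with the fragment against 13.6, 23.3 and 30.1 untreated (6.19-fold). DUSP2, a nuclear phosphatase of ERK, had 1924, 2040.1 and 2229 with the fragment against 545, 603 and 570.5 untreated (3.6-fold, adjusted p = 1.8e-16). RGS16, which switches off G proteins of chemokine receptors, had 132.8, 119.8 and 132 with the fragment against 26.1, 32.4 and 21.5 untreated (4.87-fold). The other called members were DUSP5 and SPRY1, at 2.28-fold and 2.31-fold. PTPN7, a tyrosine phosphatase of lymphocytes that acts on ERK and p38 but was not on this list, had 1304, 1264 and 1254 with the fragment against 161, 192 and 182 untreated (7.17-fold). After the isotype antibody SPRED1 and PTPN7 were 4.64-fold and 3.27-fold over untreated cells.

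Among 23 tested BCR components 1 gene was called in each direction, and the list's median log2 change was -0.13. LCP2 (SLP-76), an adaptor best known from T cells and related to the B cell adaptor BLNK, had 395, 323 and 295 in fragment-treated cells, against 22.9, 16.2 and 22.6 in untreated cells. This 16.5-fold rise (log2 4.04, SE 0.15, adjusted p = 1.9e-15) began from signals far under the limit of 100. The isotype antibody gave LCP2 a mean of 194, which was 9.51-fold over untreated cells. The fragment's log2 difference from the isotype antibody was 0.79 (adjusted p = 0.0021 in limma), under 2-fold and not called. DAPP1, an adaptor that binds phosphoinositides, was called lower through probe set 222858_s_at, with 108, 121 and 139 with the fragment against 268, 247 and 284 untreated (2.18-fold). Its main probe set fell less, at a log2 change of -0.92. Of the inhibitory receptors and their partners, 3 of 13 tested genes were higher and none lower. The coreceptor CD72 had 313, 309 and 327 with the fragment against 105, 93.3 and 103 untreated (3.15-fold), and the adaptor DOK3 had 551, 504 and 488 with the fragment against 217, 233 and 263 untreated (2.17-fold). CD22, a sialic acid-binding inhibitory coreceptor, was called through 1 probe set (196, 202 and 210.0 with the fragment against 94.9, 92.3 and 113 untreated), whereas its main probe set changed by 0.71. FCGR2B, singled out here for its role in binding Fc parts, had 92.4, 84.4 and 78.1 with the fragment against 121, 122 and 149 untreated and was not called (log2 -0.61, adjusted p = 0.00863).

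Receptors of activated B cells gave 3 called of 17 tested, all higher: IL21R, CD69 and CD44. CD69, an early activation antigen that keeps lymphocytes in tissue, had 1352, 1607 and 1404 in fragment-treated cells, against 524, 487 and 476 in untreated cells (2.93-fold). CD44, the hyaluronan receptor, was called through 4 further probe sets, while its main probe set changed by 0.45 (2989.9, 3053 and 3009.9 with the fragment against 2267, 2123 and 2258 untreated). The list's median log2 change was 0.45 after the fragment and 0.34 after the isotype antibody. Among NF-kB subunits, inhibitors and targets only BCL2A1 was called, of 15 tested. This antiapoptotic BCL2 relative, also the single called gene of 12 tested apoptosis regulators, had 1379, 1337 and 1496 with the fragment against 642, 707 and 677 untreated (2.08-fold). The median log2 change was 0.47 for the NF-kB list and 0.09 for the apoptosis list. After the isotype antibody these medians were 0.413 and 0.0021. IL4I1, a secreted amino acid oxidase of activated B cells, had 155, 159 and 178 with the fragment against 19.8, 21.3 and 20.4 untreated (7.98-fold). The kinase SGK1 had 149, 129 and 106 with the fragment against 21.9, 14.2 and 13.99 untreated (7.75-fold), and AKAP12, a scaffold of protein kinases, had 214, 217 and 191 with the fragment against 23.98, 26.4 and 20.4 untreated (8.81-fold). After the isotype antibody IL4I1, SGK1 and AKAP12 were 3.45-fold, 6.1-fold and 3.84-fold over untreated cells.

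B cell transcription factors moved both ways, with 2 of 21 higher and 3 lower. IRF4, needed for activated B cells and plasma cells, had 889, 875 and 731 in fragment-treated cells, against 341, 369 and 492 in untreated cells (2.1-fold). MEF2C, a factor downstream of calcium and p38, had 1131, 1096 and 952 with the fragment against 489, 465 and 512 untreated (2.16-fold). ETS1, which restrains plasma cell differentiation, had 845, 735 and 772 with the fragment against 2414, 2098 and 2367 untreated, a fall by 2.92-fold (adjusted p = 5.3e-11). POU2AF1, the coactivator of octamer factors at immunoglobulin promoters, had 1040.2, 1049 and 1026 with the fragment against 2229, 2334 and 2016 untreated (2.11-fold lower). IKZF3 (Aiolos) was called lower through 221092_at (39.3, 34.4 and 34.5 with the fragment against 109, 76.0 and 122 untreated), while its main probe set had 784, 874 and 791 with the fragment against 934, 919.6 and 1058 untreated and was not called. Of 8 tested plasma cell markers, IRF4 was higher and MZB1, an ER protein of antibody-secreting cells, was lower (99.9, 70.8 and 89.3 with the fragment against 217, 246 and 209.9 untreated). Of the 9 tested B cell markers, CD22 was the called gene. BLK averaged 215 ± 25.8 with the fragment and 390.1 ± 8.32 untreated, PAX5 2509 ± 89.0 with the fragment and 3629.8 ± 342 untreated, CD79B 916 ± 82.3 with the fragment and 1273 ± 21.3 untreated, and CD37 1029 ± 88.3 with the fragment and 1348 ± 70.1 untreated (SD, n = 3 each). Each of these differences had an adjusted p below 0.05 in limma but was under 2-fold. So low an adjusted p was common, with 4873 of the 14047 probe sets tested. CD40 changed by 0.35 and IGHM by -0.07 on the log2 scale.

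The largest falls were in genes of varied function. SLC26A4, an anion exchanger, had 17.0, 22.9 and 27.4 in fragment-treated cells, against 149, 132 and 143 in untreated cells (6.41-fold lower). The adhesion molecule PCDH9 had 19.1, 28.1 and 29.4 with the fragment against 153, 145 and 143 untreated (5.86-fold lower). HEPACAM2 had 31.9, 35.4 and 23.3 with the fragment against 177, 172 and 172 untreated (5.84-fold lower), and TMT1A, a thiol methyltransferase, had 271, 225 and 257 with the fragment against 1073, 1118 and 977 untreated (4.22-fold lower). OSBPL10, a lipid-binding protein, had 66.9, 67.7 and 61.9 with the fragment against 296, 247 and 266 untreated, and ELL3, a transcription elongation factor, had 175, 182 and 154 with the fragment against 689, 699 and 662 untreated. Genes of this ranking were named only where the arrays of the 2 groups did not overlap. TMEM100, FZD2 (a WNT receptor) and APAF1 (the apoptosome scaffold) fell 4.42-fold, 3.72-fold and 3.81-fold. IGHV5-78, an immunoglobulin variable segment, fell 3.85-fold with a wide spread (31.9, 17.7 and 42.6 with the fragment against 184, 60.8 and 123 untreated), and its call was lost without fragment replicate 2 or untreated replicate 1 (adjusted p = 0.0676 and 0.0709). H1-4, a linker histone, had 38.2, 22.9 and 34.5 with the fragment against 168, 113 and 165 untreated, and returns in the isotype comparison.

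Regulators of quiescence and of mRNA turnover were among the lowered genes. Of 11 tested FOXO targets 3 were lower and none higher, against 1.8% lower over all entries. The list median was -0.535 after the fragment and -0.351 after the isotype antibody, and no member was called between these 2. SESN3, an inhibitor of mTORC1, had 148, 129 and 112 in fragment-treated cells, against 491, 370.1 and 374 in untreated cells (3.17-fold lower). CCNG2, an atypical cyclin of resting cells, had 212, 225 and 206 with the fragment against 542, 563 and 516 untreated (2.52-fold lower), and KLF2, a factor of lymphocyte trafficking and quiescence, had 70.1, 61.5 and 59.9 with the fragment against 171, 141 and 124 untreated (2.26-fold lower). Among 10 mRNA decay and BTG/TOB genes, ZFP36 was higher and ZC3H12D and TOB1 were lower. ZFP36, which marks AU-rich cytokine mRNAs for decay, had 1166, 1100.3 and 1190.0 with the fragment against 350.4, 375 and 391 untreated (3.1-fold higher). ZC3H12D, of the Regnase family, had 85.0, 80.2 and 93.3 with the fragment against 388, 408 and 356 untreated (4.46-fold lower), and TOB1 had 494, 384 and 403 with the fragment against 878, 842 and 897 untreated (2.05-fold lower). Of 9 tested p53 targets DDB2 and TP53INP1 were lower, at 2.61-fold and 2.03-fold.

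Metabolic and growth lists showed few calls. HK2 and PFKP, which catalyse early steps of glycolysis, rose 2.18-fold and 2.21-fold, out of 16 tested genes of that pathway. STARD4, a cholesterol carrier, rose 2.44-fold, the called gene among 12 tested of the cholesterol list. In the integrated stress response list (11 tested) TRIB3, a pseudokinase, rose 2.8-fold and the cystine transporter SLC7A11 fell 2.09-fold. None of 14 ribosome biogenesis genes was called, though their median log2 change was 0.54, and none of 15 ER chaperone genes, 6 interferon-stimulated genes, 6 MHC class II genes or 24 DNA replication genes (median log2 changes of 0.215, -0.45, -0.12 and -0.18 in this order). Of 26 mitotic genes HMMR and ASPM, both spindle proteins, were lower, and the list median was -0.41 (-0.235 after the isotype antibody). HMMR had 504, 576 and 494 in fragment-treated cells, against 1074, 1088 and 991 in untreated cells, just past 2-fold, and ASPM was called through 2 further probe sets. The list of 12 tested responders that the study singled out, which was chosen on these samples and is not independent evidence, had 2 called higher (SGK1 and, through 1 further probe set, SRGN) and 6 lower. The lowered ones were ETS1, NREP (2.17-fold), GLRX (2.24-fold), RNF144B (2.3-fold) and, each through a further probe set only, DAPP1 (2.18-fold) and APBB1IP (2.11-fold).

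**Figure D3:**
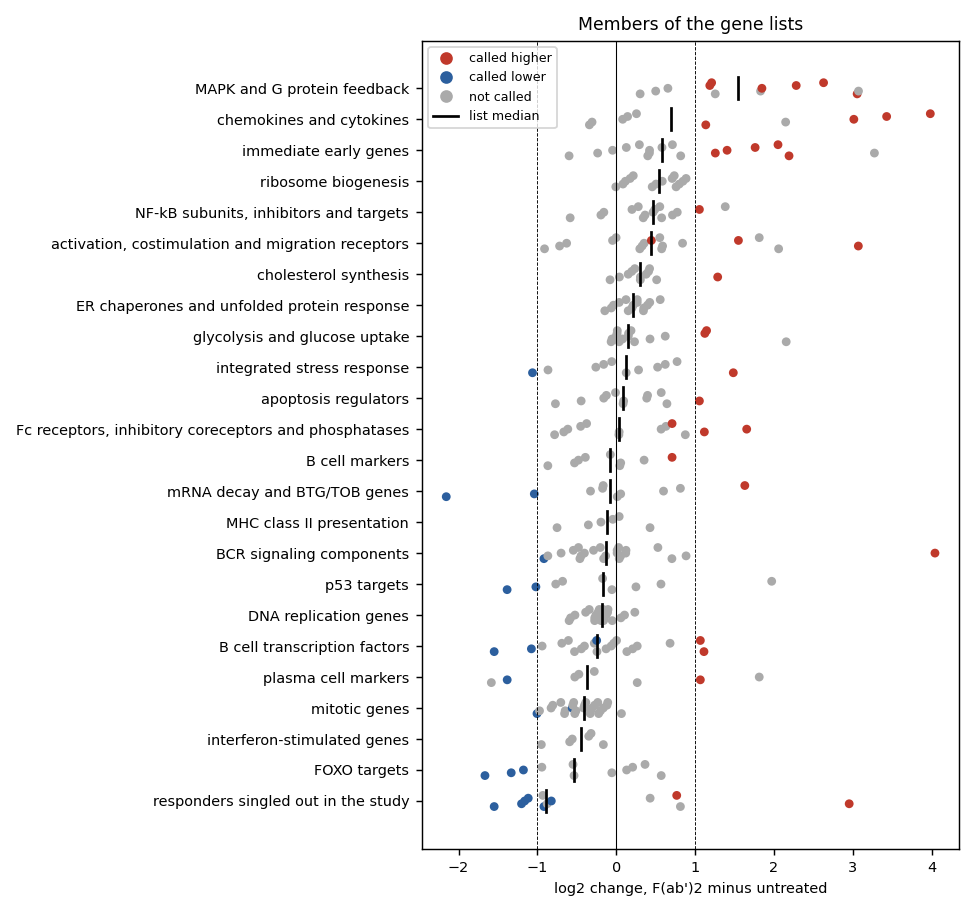
Log2 change, rituximab F(ab')2 minus untreated, of the main probe set of each tested member of the gene lists with at least 6 tested members. Red and blue points are genes called higher or lower (a coloured point inside the dashed 2-fold lines was called through another probe set), grey points were not called (beyond 2-fold, they missed the signal or p limit), and black bars are medians, from 1.54 for MAPK and G protein feedback to -0.90 for responders singled out in the study.

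The second comparison set the fragment against whole rituximab, which has the Fc part. The 2 groups may also differ in the moles given. Their 18S signals (5′ probe set) differed too, at 105 to 1921 in the fragment arrays and 2695 to 3699 in the whole rituximab arrays. The parts of dose and ribosomal signal in this comparison were not tested. No entry was called in either direction (0% of 9333), no probe set had an adjusted p below 0.05 in limma, and 811 probe sets (5.77% of 14047) had an unadjusted p below 0.05. By the main probe sets this held for 59 of the 153 entries raised and 49 of the 129 lowered by the fragment, against 507 of all 9333; these entries were chosen with the same fragment arrays, so these counts are a description. The smallest adjusted p was 0.101. The 95% interval of the difference lay within 2-fold either way for 9278 of 9333 entries, including 149 of the 153 entries raised and 116 of the 129 lowered by the fragment. The median half-width of these intervals was 0.25 on the log2 scale for the raised and 0.33 for the lowered entries, so that a small difference was not detectable with 3 arrays a group. The following 5 genes had the smallest p. ETS1 had 845, 735 and 772 after the fragment and 1159, 1166 and 1213 after whole rituximab, with a difference of -0.59 on the log2 scale (95% interval -0.81 to -0.38). IL21R had 574, 443 and 545 after the fragment and 367, 367 and 368 after whole rituximab (difference 0.49, interval 0.31 to 0.68). The groups did not overlap for either gene, and both adjusted p were 0.101. POU2AF1 differed by -0.36 (interval -0.52 to -0.21), AKAP12 by 0.65 (interval 0.37 to 0.94) and PRXL2B, chosen after its values were seen, by 0.37 (interval 0.21 to 0.53), each with an adjusted p of 0.203. For CCL4 the means were 3196 after the fragment and 3194 after whole rituximab (interval of the difference -0.16 to 0.16), and EGR1 differed by -0.06 (interval -0.25 to 0.14). LCP2 averaged 338 ± 51.6 after the fragment and 253 ± 58.0 after whole rituximab (difference 0.43, interval 0.11 to 0.75).

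Over the 153 raised entries the fragment's signal was the lower one for 15, with a median log2 difference, fragment minus whole rituximab, of 0.20. Over the 129 lowered entries it was the higher one for 5, with a median of -0.28. After whole rituximab the median log2 change from untreated cells was 1.18 for the raised and -1 for the lowered entries, between the medians given for the fragment and the isotype antibody. These entries were picked by their fragment values, and the treatments share the untreated arrays, so the order of the medians is a description and was not tested. Counted with the same rule against untreated cells, whole rituximab gave 114 entries higher (1.22% of 9333) and 70 lower (0.75%), LT20 270 higher (2.89%) and 294 lower (3.15%), and the isotype antibody 59 higher (0.632%) and 10 lower (0.107%).

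**Figure D4:**
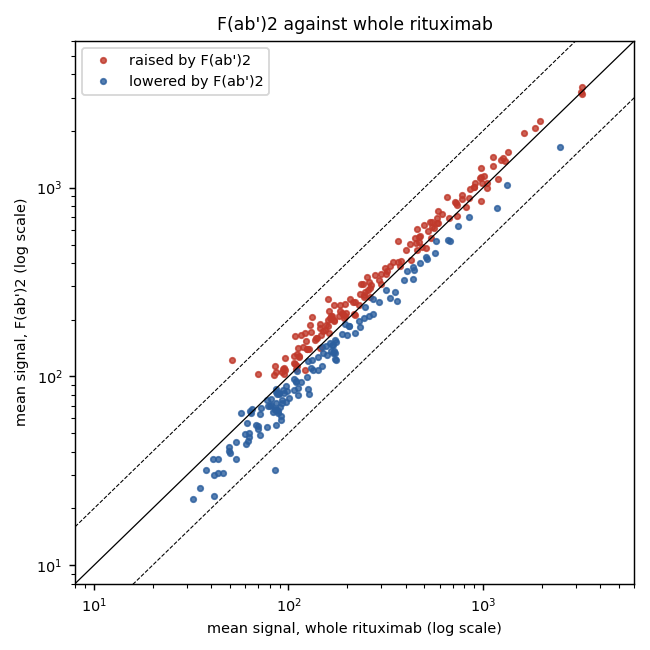
Mean signal (arbitrary units, log scales, n = 3 each) after rituximab F(ab')2 against that after whole rituximab for the 153 entries raised (red) and 129 lowered (blue) by the fragment relative to untreated cells. The solid line is equality and the dashed lines are 2-fold; by the fitted log2 differences 15 raised entries were lower and 5 lowered entries higher after the fragment than after whole rituximab.

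Genes were also chosen from whole rituximab against untreated cells and read in the fragment against the isotype antibody. These contrasts share no arrays, but both take each probe set's error from the same fit of all REC1 arrays. Choosing called probe sets favours a small error, which can raise their share at an adjusted p below 0.05. The shares are therefore not independent of the choice, and the size of this effect was not tested. The directions and median differences do not use this error. Of 105 main probe sets raised by whole rituximab, 101 were higher after the fragment than after the isotype antibody, and 70 (66.7%) at an adjusted p below 0.05. Over all 9333 entries this share was 5.3%. Of 65 lowered by whole rituximab, all 65 were lower after the fragment, and 45 (69.2%) at an adjusted p below 0.05, against 3.6% over all entries. None passed in the opposite direction. The median log2 difference, fragment minus isotype, was 0.52 for the 105 raised and -0.67 for the 65 lowered probe sets.

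The third comparison set the fragment against the isotype antibody, a human IgG not directed against CD20. Higher were 7 entries (0.075% of 9333) and lower were 19 (0.204%). The raised genes included activation genes named above. BATF3, a basic leucine zipper factor, had 198, 231 and 241 after the fragment and 79.0, 95.4 and 69.7 after the isotype antibody (2.76-fold, adjusted p = 0.00201). IL21R (219971_at) had 253, 263 and 290.1 after the fragment and 104, 116 and 98.9 after the isotype antibody (2.53-fold). IL4I1, AKAP12 and PTPN7 differed 2.32-fold, 2.29-fold and 2.19-fold, the protease TMPRSS3 2.16-fold and the receptor gene LILRA6, whose probe set may read related family members, 2.06-fold. For CCL4 the isotype arrays had 2766, 2547 and 2644, and the fragment's difference from them was 0.27 on the log2 scale (adjusted p = 0.0304). EGR1 had 598, 735 and 754 after the isotype antibody and differed by 0.19 (adjusted p = 0.224). The count of higher entries rested on the isotype arrays, with 15 without isotype replicate 3 and 11 without isotype replicate 2.

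The 19 lowered entries (20 probe sets) differed in their isotype level. For OSBPL10 the means were 65.5 after the fragment, 149.5 after the isotype antibody and 269.8 in untreated cells, and for TMT1A they were 251 after the fragment, 538 after the isotype antibody and 1056 in untreated cells. In 15 of the 20 probe sets, in contrast, isotype and untreated means lay within 1.5-fold of each other. H1-4 had 38.2, 22.9 and 34.5 after the fragment and 217, 112 and 119 after the isotype antibody (4.57-fold lower), with 168, 113 and 165 in untreated cells and 93.0, 84.5 and 78.0 after whole rituximab. ESCO1, an acetyltransferase of cohesin, had 58.4, 57.3 and 53.8 after the fragment and 162, 84.2 and 138.4 after the isotype antibody (2.19-fold lower), with 130.3, 100.4 and 133.5 in untreated cells. IKZF3 (221092_at) averaged 36.1 ± 2.82 after the fragment and 103 ± 33.0 after the isotype antibody, and BHLHE41, a circadian repressor, 82.5 ± 25.7 after the fragment and 208 ± 46.2 after isotype. AGGF1 averaged 63.9 ± 12.8 after the fragment, 157 ± 33.9 after isotype and 88.1 ± 33.5 untreated; its fragment and untreated arrays overlapped (log2 -0.42, adjusted p = 0.257), and the isotype mean was 1.83-fold over the untreated cells by the fit (adjusted p = 0.0383). WASF2, an actin regulator, averaged 97.8 ± 19.9 after the fragment, 228 ± 54.5 after isotype and 219.5 ± 41.8 untreated. PRRC2C averaged 51.3 ± 1.1 after the fragment, 122 ± 48.6 after isotype and 98.7 ± 6.46 untreated, and PLEKHA2 73.9 ± 10.5 after the fragment, 161 ± 15.7 after isotype and 201 ± 38.0 untreated (SD, n = 3 each). All 20 probe sets had lower means than untreated cells in the anti-IgM F(ab')2 and anti-IgG arrays, 19 in the whole rituximab arrays, 19 in the anti-IgM arrays and 18 in the LT20 arrays. Any difference in means counted as lower here, and the shares over all probe sets were not counted. On the log2 scale the whole rituximab mean was nearer to the isotype mean than to the fragment mean in 14 of the 20. The 20 probe sets were chosen by their low fragment and high isotype values, so this count is a description and was not tested. In the isotype group H1-4 and 18S were both highest in replicate 1, and the part of the ribosomal signal in these calls was not tested. With an offset of 16 added before the logarithm 10 of the lowered entries were called, and with only the main probe set of each gene 8.

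The fourth comparison set the fragment against LT20, which binds CD20 as a whole mouse antibody. Higher after the fragment were 3 genes (0.0321% of 9333) and lower were 9 (0.0964%). CCNG2 had 212, 225 and 206 after the fragment and 84.0, 101 and 89.5 after LT20 (2.35-fold higher), against 542, 563 and 516 in untreated cells. RASSF6, of a family of RAS-binding proteins, had 287, 264 and 286 after the fragment and 119.9, 166 and 114 after LT20 (2.12-fold higher), against 585, 725 and 675 in untreated cells. ETV1, an ETS factor, averaged 178 ± 39.2 after the fragment and 78.9 ± 3.68 after LT20 (SD, n = 3 each). For these 3 genes the fragment arrays lay between the LT20 arrays and the untreated mean. IER3 was among the lowered genes. This stress-induced survival gene had 70.1, 61.5 and 75.1 after the fragment and 210.0, 207 and 178 after LT20 (2.88-fold lower, adjusted p = 2.2e-08), with 46.9, 44.6 and 46.3 in untreated cells. MIR146A, whose mature sequence is given above, had 80.8, 61.5 and 58.8 after the fragment and 161, 156 and 177 after LT20 (2.48-fold lower). The receptor TNFRSF18 (GITR) averaged 46.8 ± 12.1 after the fragment and 105 ± 15.6 after LT20, and ZC3H12C, of the Regnase family, 59.9 ± 2.38 after the fragment and 134 ± 6.27 after LT20. REL, an NF-kB subunit, was called through 239486_at (347, 245 and 219 after the fragment and 519, 567 and 593 after LT20), and CSF1 through 207082_at (2.51-fold lower). Their main probe sets differed by -0.56 and -0.49 on the log2 scale (adjusted p = 1.9e-05 and 0.0203) and were not called. ESCO1, CHMP4B and TMEM33 completed the lowered genes, at 2.21-fold, 2.05-fold and 2.03-fold. Single arrays moved these counts, to 12 higher without fragment replicate 3, 5 higher without LT20 replicate 1 and 21 lower without fragment replicate 1.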

How the data were processed

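RNA of REC1 cells was hybridised to HG-U133 Plus 2.0 arrays. The deposited values are MAS5 signal intensities on a linear scale, which the authors scaled so that every array has nearly the same total (8528632 to 8529807 over the 24 REC1 arrays). The authors' tables of triplicate means and change factors, which hold their own comparisons, were not used.

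Signals were floored at 1, log2-transformed and fitted for all 24 REC1 arrays in 1 model with limma 3.58.1 (R 4.3.3, eBayes with trend), with Benjamini-Hochberg adjustment over the probe sets tested. An entry was called where the difference exceeded 2-fold, the adjusted p was under 0.05 and either group averaged over 100. The mean and fold limits are those of the study's methods, which also filter on detection calls; these were not used here. Control probe sets were left out of the test, a choice made after seeing the data. The fitted model was tested on simulated data before use. The number of arrays limits the precision. MAS5 subtracts mismatch probe signals, so that low values are noisy.

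Of 54675 probe sets, 41097 had 1 gene symbol in the platform annotation, 1801 several and 11777 none; of those tested, 89.4% had 1. A gene's main probe set is the one with the highest mean over the REC1 arrays. The text names the 12 called genes that rose most and the 12 that fell most, provided that their groups did not overlap, up to 4 called members of each gene list, CD20 and the B cell markers, and up to 8 genes in each direction of the other comparisons. Promoters and microRNAs are from RefSeq (GRCh38.p14). The arrays compared and the gene lists were chosen with earlier results of these data known. Alternatives were quantile normalization, an offset, no filter, fewer arrays in the fit, a replicate block, no variance trend, the main probe set only, the methods' mean and fold limits without a test, the isotype arrays in place of the untreated ones, leaving out each array, and, added after seeing the data, the control probe sets kept.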

Additional observations from a re-analysis of the deposited data

How the results depend on the processing

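Against untreated cells, the counts of 172 higher and 168 lower entries stayed within 1.5 times under every alternative but 1, and were 161 to 208 higher and 159 to 208 lower when single arrays were left out. Without fragment replicate 2, which had the lowest 18S signal, they were 168 higher and 159 lower. The 18S signals of the remaining fragment arrays (1921 and 435) were also below every untreated array, and the part of this signal was not tested. The exception was the isotype antibody in place of the untreated arrays, which gave 7 higher and 19 lower; the cause was not tested. Against whole rituximab the count was 0 in each direction in all limma fits, also without single arrays (0 to 0), and the methods' mean and fold limits without a test, and without their detection-call filter, gave 1 higher and 3 lower. Against the isotype antibody, an offset of 16 left 10 lower entries and the main probe set alone 8, and leaving out single arrays gave 8 to 15 higher and 13 to 28 lower. Against LT20, the offset and the main probe set alone each left 4 lower entries, a fit on only the 6 arrays gave 5 higher, and leaving out single arrays gave 2 to 12 higher and 6 to 21 lower. With the main probe set alone fewer probe sets can be called for a gene; otherwise the cause was not tested.

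With the replicate number as a block the counts were 172 higher and 168 lower against untreated cells, 0 and 0 against whole rituximab, 7 and 19 against the isotype antibody, and 3 and 9 against LT20, as without it. The numbers did not pair the arrays, since deviations of same-numbered fragment and untreated arrays correlated at -0.053, -0.0656 and -0.267. With the control probe sets kept, an alternative chosen after seeing the data, 172 were higher and 172 lower against untreated cells, and 23 lower against the isotype antibody.

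Of 69 named genes, 60 kept direction and call under the alternatives in which single genes were followed, and none reversed. These were 12 alternatives, or 11 for TMEM100, whose probe set was not among those tested after quantile normalization. They were quantile normalization, the offset, no filter, fewer arrays in the fit, the replicate block, no variance trend and leaving out each array. Single genes were not followed under the other alternatives. One of those was the isotype antibody as reference, where 7 entries were called higher and 19 lower, so that most calls were lost. The named genes whose call changed lay near a limit: HMMR, TP53INP1, NREP, SLC7A11, TOB1 and IRF4 near 2-fold, HBEGF near a mean of 100, and IGHV5-78 near the p limit. DAPP1 by its main probe set gained a call without fragment replicate 3.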
